A study of Mus musculus with 6 samples.

Results

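The response of Nos1 knockout lungs to bacterial lipopolysaccharide (LPS) was measured in single cells by comparing 2 libraries from knockout mice given LPS with 1 library from knockout mice given vehicle. Cells were taken from the 3 knockout libraries if at least 200 genes were detected and at most 10% of their UMIs (unique molecular identifiers, counted molecules) came from mitochondrial genes, which kept 28557 of 29995 cell barcodes. The series as a whole holds 64428 barcodes in 6 libraries, and its wild-type libraries were not used here. Nos1 encodes neuronal nitric oxide synthase, and all 3 libraries share its knockout, so no value below says what the knockout itself changed. Mice received LPS at 10 mg/kg or vehicle into the peritoneum 4 h before the lungs were collected. The lungs were digested with Liberase and DNase, red cells were lysed, and cells were enriched with a CD45 positive-selection kit before 10x Genomics 3′ profiling. The labels give no strain beyond mouse for the knockout, and neither sex, age nor the number of animals behind a library.

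LPS is a cell wall component of Gram-negative bacteria that is sensed by TLR4 with its co-receptors CD14 and MD-2. MyD88 signalling downstream of TLR4 activates NF-kB, which drives cytokine and chemokine genes as well as its own inhibitors Nfkbia and Tnfaip3. TRIF signalling leads to interferon beta, which then induces interferon-stimulated genes in any cell with the type I interferon receptor. In the lung, alveolar macrophages line the air spaces, interstitial macrophages sit in the tissue, and neutrophils and classical monocytes arrive from the blood.

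The vehicle, LPS replicate 1 and LPS replicate 2 libraries kept 8595, 11578 and 8384 cells, with medians of 4783, 6222.5 and 4865 UMIs per cell. The median mitochondrial share was 4.18% in the vehicle library and 1.95% and 2.14% in the LPS libraries, and 20 to 30 barcodes were shared by any pair of libraries. Nos1 itself had 5, 4 and 4 UMIs in the 3 libraries, too few in every cell class for a test. Where in the gene these UMIs lie is not given in the files, so they do not check the genotype. The libraries differed in the sex marks of their cells. In the vehicle library 0.0147% of the cells with only 1 kind of mark carried Y-linked UMIs, the others Xist, whereas in the LPS libraries 40.6% and 37.0% carried Y-linked UMIs. Cells of both sexes were therefore present in each LPS library and cells of 1 sex in the vehicle library. Sex, animal and the response to LPS cannot be told apart between those cells, and results are given below with and without the Y-marked ones. Because the labels do not say that the LPS libraries came from separate animals, the spread between them may be technical.

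Promoters of 4 genes that carry the main findings below are shown here, each as the 250 bases before the gene's start in RefSeq on GRCm38.p6, read 5′ to 3′ on the gene's strand. Cxcl2 and Cxcl3 encode chemokines that attract neutrophils and are known NF-kB targets. Ifit1 and Isg15 are interferon-stimulated genes. Capitals mark matches to GGG and CC with 5 bases of any kind between, or the same on the other strand, in the first pair, the letters of a loose NF-kB (kappaB) motif. In the second pair they mark GAAA and GAAA with 2 bases of any kind between, or the same on the other strand, the letters of an interferon-stimulated response element. Overlapping matches run together.
Cxcl2, chr5:90903649-90903898, plus strand: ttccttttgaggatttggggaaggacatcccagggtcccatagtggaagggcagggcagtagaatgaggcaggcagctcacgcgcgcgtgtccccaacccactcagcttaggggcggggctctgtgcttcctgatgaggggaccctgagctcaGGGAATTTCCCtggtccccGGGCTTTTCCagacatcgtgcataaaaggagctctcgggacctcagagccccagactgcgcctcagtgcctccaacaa
Cxcl3, chr5:90785851-90786100, plus strand: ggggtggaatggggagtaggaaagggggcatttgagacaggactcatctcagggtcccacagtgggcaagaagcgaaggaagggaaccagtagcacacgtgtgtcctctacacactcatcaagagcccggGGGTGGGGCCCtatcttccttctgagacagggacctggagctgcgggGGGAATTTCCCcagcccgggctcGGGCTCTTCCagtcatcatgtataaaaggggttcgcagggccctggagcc
Ifit1, chr19:34640639-34640888, plus strand: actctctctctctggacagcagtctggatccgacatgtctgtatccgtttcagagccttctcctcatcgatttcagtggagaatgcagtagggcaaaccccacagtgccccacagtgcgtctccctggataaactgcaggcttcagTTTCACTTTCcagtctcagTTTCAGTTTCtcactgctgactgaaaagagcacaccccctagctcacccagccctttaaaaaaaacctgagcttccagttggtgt
Isg15, chr4:156200819-156201068, minus strand: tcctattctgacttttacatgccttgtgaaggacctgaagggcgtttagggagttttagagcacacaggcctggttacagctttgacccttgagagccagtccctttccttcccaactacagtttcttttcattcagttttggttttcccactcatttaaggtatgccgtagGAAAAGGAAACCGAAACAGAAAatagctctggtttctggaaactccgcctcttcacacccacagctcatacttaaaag
The Cxcl2 window held 3 matches to the kappaB letters and the Cxcl3 window 5. The Ifit1 window held 2 matches to the response element and the Isg15 window 3. Of 27025 promoter windows of the same length, 45.4% held the kappaB letters and 3.04% the response element letters, so the first motif is common and the second is not.

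Neutrophils and classical monocytes took up a much larger share of the LPS libraries, and lymphocytes a smaller one. Each cell was assigned to a class from its own UMIs for a fixed set of markers, such as S100a8 and Csf3r for neutrophils or Cd3d and Trac for T cells. Of the kept cells 15.4% to 16.9% carried markers of more than 1 class and 1.11% to 3.31% of none, and both kinds were left out. Neutrophils made up 5.01% of the vehicle library (431 cells, exact 95% binomial interval 4.56% to 5.50%) and 35.3% of each LPS library (intervals 34.5% to 36.2% and 34.3% to 36.3%). These intervals cover counting error only. Their share rose by 2.82 ± 0.09 on the log2 scale (SE; edgeR's quasi-likelihood test, Benjamini-Hochberg adjusted over 14 classes, adjusted p = 0.00357). Classical monocytes, the Ly6c2-positive monocytes that leave the blood in inflammation, rose from 3.36% to 9.56% and 10.1%, a log2 change of 1.55 ± 0.11. T cells fell from 18.7% to 3.76% and 4.06%, a log2 change of -2.26 ± 0.10. The intervals of the vehicle and LPS libraries did not overlap for any of these classes.

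Other shares fell less. B cells went from 21.5% to 10.2% and 11.0% (log2 -1.02 ± 0.10), NK cells from 4.85% to 1.63% and 1.99% (log2 -1.43 ± 0.17), nonclassical monocytes from 2.40% to 0.933% and 1.15% (log2 -1.22 ± 0.19), and alveolar macrophages from 19.5% to 11.2% and 11.5% (log2 -0.78 ± 0.08). All of these passed the test, but shares of 1 library sum to a whole, and a large rise in 1 class lowers the rest. Among gated cells other than neutrophils, alveolar macrophages made up 25.3%, 24.7% and 24.6% (log2 -0.040), and the shares of B cells (-0.28), NK cells (-0.69) and nonclassical monocytes (-0.48) no longer passed. T cells and classical monocytes kept their calls with that denominator. Endothelial cells stood at 2.82%, 4.05% and 3.57% and dendritic cells at 1.36%, 1.04% and 0.787%, and neither passed the test. Interstitial macrophages (0.652%, 0.510% and 0.608%) and stromal cells (1.02%, 1.16% and 0.751%) had overlapping intervals.

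**Figure D1:**
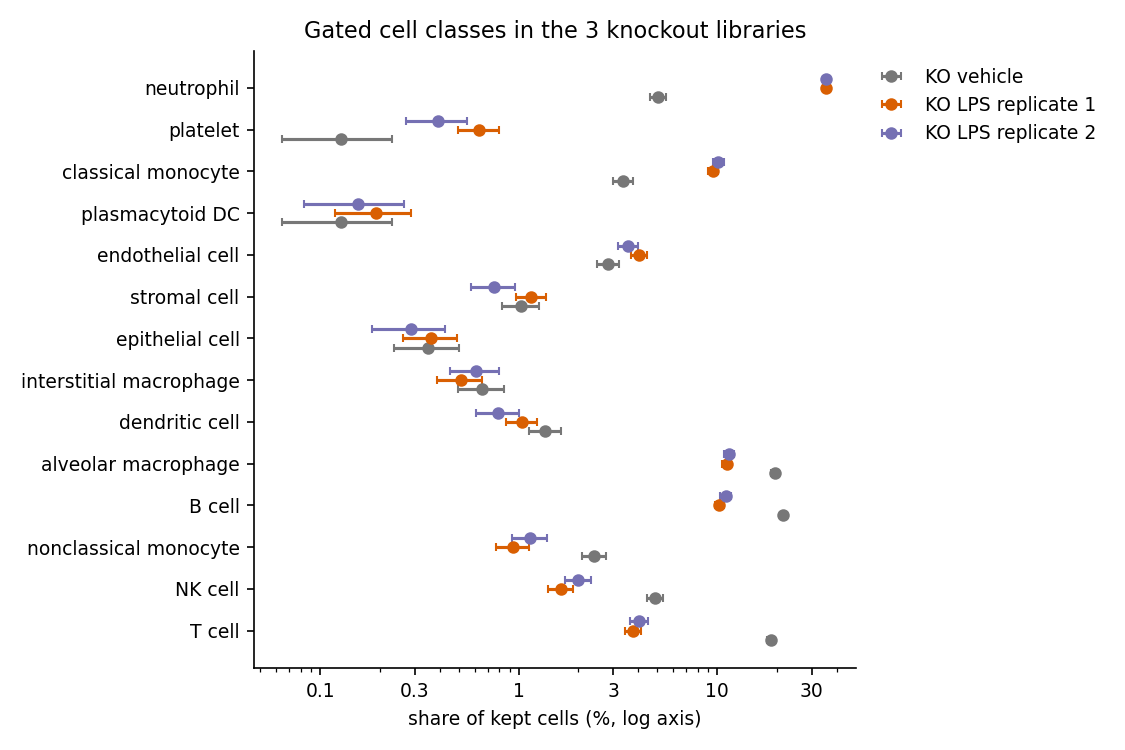
Share of kept cells in each gated class (percent, log axis) in the vehicle library and the 2 LPS libraries of the knockout; points are libraries and bars are exact 95% binomial intervals. Neutrophils stand at 5.01% in the vehicle library and 35.3% in both LPS libraries, and T cells at 18.7% against 3.76% and 4.06%.

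With only Xist-marked cells counted in all 3 libraries, neutrophils were 0.926%, 15.7% and 13.1% of cells, classical monocytes 3.66%, 8.21% and 9.37%, and T cells 15.9%, 4.96% and 4.63%, and all of these kept their calls. B cells were then 22.1%, 20.0% and 20.0% (log2 -0.14), which no longer passed. NK cells were 4.50%, 3.22% and 3.45%, a smaller fall (log2 -0.44 ± 0.15) that still passed, and endothelial cells 2.34%, 5.32% and 4.60% (log2 1.09 ± 0.17), which then passed. Few neutrophils show Xist at all, 14.6% in the vehicle library against 81.1% of B cells, so the low Xist-marked shares of that class do not measure its size. Counting only Xist-marked cells thus also takes most neutrophils out of the total, which raises the shares of other classes in the LPS libraries. The changes for B, NK and endothelial cells therefore do not show the effect of leaving out Y-marked cells alone.

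Gene expression was compared class by class, on UMIs summed over the cells of a class in each library and given as counts per 1e6 of the TMM-scaled UMI total of that class and library (CPM). Values below are listed in the order vehicle, LPS replicate 1, LPS replicate 2. A gene is said to rise or fall where edgeR's quasi-likelihood test gave a Benjamini-Hochberg adjusted p under 0.05 and the change was at least 2-fold. Changes are log2 differences of LPS from vehicle ± SE. A gene with no UMI in the vehicle library is given as at least so many times higher, taking 3 UMIs as the most that a count of 0 allows there. The lone vehicle library was assumed to vary like the LPS libraries, whose median gene differed by 0.07 to 0.22 on the log2 scale across classes, against 0.23 to 0.73 between an LPS library and the vehicle library. The fit's scaling (TMM) placed log2 changes 0.12 to 0.91 above those with plain library sizes, most in neutrophils (0.91), endothelial cells (0.60) and dendritic cells (0.51), so counts of rises and falls are given with both.

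Vehicle and LPS cells of a class mostly fell into different Leiden clusters, which were built on the same genes. Cluster 24 held 97.7% of vehicle neutrophils, while those of the LPS libraries were spread over clusters 4, 6, 8, 9, 10, 11 and 19. Vehicle classical monocytes lay in cluster 34 (90.7%) and LPS ones mainly in clusters 7 and 16. For nonclassical monocytes these were clusters 43 and 20, for NK cells 21 and 30, for T cells 1 and 14, and for endothelial cells 41 against 27 and 40. Vehicle B cells lay mainly in cluster 0 (72.6%) and LPS ones in 13, 15, 18 and 23. Alveolar macrophages shared clusters 2 and 3, but cluster 12 held 33.6% and 38.5% of the LPS cells and under 5% of the vehicle cells. Interstitial macrophages (cluster 29) and stromal cells (35 and 46) kept the same clusters. A change within cells and a change in which cells make up a class cannot be told apart in the sums below.

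Over the 11 classes tested, 4824 genes rose in at least 1 class, 4690 fell in at least 1, and 872 did both. Of the genes tested, 72 rose in all 11 classes and 1 fell in all 11. Among the 72 was the Y-linked Ddx3y, and the vehicle library held almost no Y-marked cells, which leaves 71 others. Free RNA in the cell suspension can lend such abundant transcripts to every class. Saa3, an acute phase protein, stood at 0.526 UMIs per T cell and 0.629 per B cell in LPS replicate 1, and Lcn2, the neutrophil granule protein lipocalin 2, at 1.62 and 1.50, alike in cell types not known to make them. For this reason the strongest rises named in a class are only those with at least 5 times as many UMIs per cell as T cells had (B cells, for T and NK cells).

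Neutrophils from LPS libraries raised chemokine and interferon-stimulated genes, and several transcripts were at 0 in the vehicle library. In neutrophils 1900 of 11451 genes tested (16.6%) rose and 1300 (11.4%) fell, or 830 and 3448 with plain library sizes. Nos2, the inducible nitric oxide synthase, was at 0, 119 and 111 CPM, at least 56.2-fold higher. Lipg, which encodes endothelial lipase, was at 0, 916 and 965 CPM, at least 460.2-fold higher. Fcgr1, the high-affinity IgG receptor CD64, was at 0, 217 and 221 CPM, at least 107-fold higher. In each case both LPS libraries lay close together and far above the vehicle library. The strongest rises were picked among genes with both LPS libraries above the vehicle library, so this is no separate support. The strongest falls included Cd101, a surface protein of mature neutrophils, at 101, 1.24 and 0.954 CPM (log2 -6.46 ± 0.25), and the sodium channel subunit Scnn1a at 70.2, 4.26 and 5.09 CPM (log2 -3.93 ± 0.20).

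Among neutrophil cytokines and chemokines, 10 of 19 inflammatory cytokine genes rose and 1 fell, and 7 of 10 CC chemokine genes rose and 1 fell. Ccl3 and Ccl4, which attract macrophages and lymphocytes, were at 17.0, 3135 and 3117 CPM (log2 7.52 ± 0.20) and 24.5, 6557 and 6042 CPM (log2 8.01 ± 0.20). Cxcl2 was at 1761, 19800 and 19450 CPM (log2 3.48 ± 0.05), so a gene already high in vehicle neutrophils rose further. Tnf stood at 17.7, 220.0 and 221 CPM (log2 3.64 ± 0.21). Il1b was already high in the vehicle library, at 6500, 10080 and 10080 CPM, a change under 2-fold (log2 0.63, or -0.27 with plain library sizes). Il10, an anti-inflammatory cytokine, was at 0, 26.2 and 27.1 CPM, at least 13.1-fold higher.

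In the same cells 33 of 34 interferon-stimulated genes rose, with a list median of 4.84 on the log2 scale beside 0.14 for all genes tested. Ifit1, which binds foreign RNA ends, was at 22.5, 3471 and 3451 CPM (log2 7.27 ± 0.17), and Rsad2, the antiviral enzyme viperin, at 163, 5049 and 5136 CPM (log2 4.97 ± 0.08). In the list of NF-kB pathway members and feedback inhibitors 16 of 20 genes rose and 1 fell. Nfkbia, the inhibitor IkB-alpha, was at 548, 4405 and 4553 CPM (log2 3.03 ± 0.06). The cytokine-signalling inhibitors Socs1 and Socs3 were at 12.3, 335 and 309 CPM (log2 4.72 ± 0.28) and 323, 1271 and 1298 CPM (log2 1.99 ± 0.07). Genes of MHC class I and peptide loading rose in 14 of 17 cases. The transporter Tap1 was at 59.2, 454 and 436 CPM (log2 2.91 ± 0.12).

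Neutrophil granule genes moved unevenly, with 6 of 11 rising and 1 falling. Camp and Ngp, which encode proteins stored in secondary granules and are transcribed in immature neutrophils, were at 3.40, 3002 and 2751 CPM (log2 9.72 ± 0.52) and 16.4, 5051 and 5102 CPM (log2 8.28 ± 0.20). Lcn2 was at 935, 38340 and 38860 CPM (log2 5.37 ± 0.05). Cxcr4, the receptor that holds neutrophils in the bone marrow and marks aged ones, fell from the highest level in the vehicle library, with 404, 50.4 and 39.0 CPM (log2 -3.15 ± 0.12). Cells of different maturity and a change within cells cannot be told apart in these sums.

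Classical monocytes from LPS libraries raised 15 of 17 acute phase and complement genes, 9 of 11 CC chemokine genes (1 fell) and 15 of 17 cell cycle genes. In classical monocytes 1809 of 11431 genes (15.8%) rose and 1497 (13.1%) fell, or 1460 and 1840 with plain library sizes. Saa3 was at 0, 15220 and 14930 CPM, at least 10710-fold higher, and at far more UMIs per cell than in lymphocytes. Timp1, an inhibitor of matrix proteases, was at 0, 204 and 216 CPM, at least 149-fold higher. Edn1, the precursor of the vasoconstrictor endothelin 1, was at 0, 167 and 206 CPM, at least 132-fold higher. None of these had a UMI in the 289 vehicle monocytes. The steepest falls were those of the lipid transporter gene Abca9, at 67.1, 1.84 and 2.00 CPM (log2 -5.13 ± 0.27), of Ypel3, at 258, 9.08 and 7.64 CPM (log2 -4.92 ± 0.13), and of the fractalkine receptor Cx3cr1, at 290.3, 14.2 and 14.7 CPM (log2 -4.33 ± 0.11).

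Inflammatory cytokine genes rose in 13 of 17 cases in classical monocytes, and 1 fell. Il1b was at 200.3, 2025 and 2173 CPM (log2 3.39 ± 0.10) and the interleukin 1 receptor antagonist Il1rn at 6.57, 1381 and 1419 CPM (log2 7.73 ± 0.34). Tnf was at 3.75, 51.6 and 40.6 CPM (log2 3.63 ± 0.43). Acod1, which makes itaconate, was at 0.938, 600.1 and 634 CPM, the first value resting on 2 UMIs (exact 95% Poisson interval 0.114 to 3.39 CPM). Nos2 was at 0, 32.6 and 39.9 CPM, at least 25.8-fold higher. Of 34 interferon-stimulated genes 32 rose, with a median of 2.37, below the medians of neutrophils and interstitial macrophages.

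In the classical monocyte cell cycle list 15 of 17 genes rose. The proliferation marker Mki67 was at 3.75, 193 and 159 CPM (log2 5.55 ± 0.42). Of the MHC class II genes 5 of 10 fell and none rose, and H2-Aa was at 256, 124 and 132 CPM.

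Alveolar macrophages raised chemokine and cytokine genes together with the feedback inhibitors of NF-kB. In alveolar macrophages 692 of 12900 genes (5.36%) rose and 447 (3.47%) fell, or 575 and 549 with plain library sizes. Cxcl2 was at 81.6, 2130 and 2232 CPM (log2 4.74 ± 0.06) and Cxcl3 at 2.13, 479 and 449 CPM (log2 7.76 ± 0.19). Tnf was at 10.6, 219 and 219.6 CPM (log2 4.38 ± 0.11), and Ccl3 at 16.5, 296 and 279.9 CPM (log2 4.12 ± 0.09). The LPS libraries lay close together for each, and both stood far above the vehicle library, which picking genes by size or smallest p favours. Inflammatory cytokine genes rose in 13 of 19 cases, none falling, among them Il1a at 19.8, 309 and 303 CPM (log2 3.95 ± 0.09) and Il1b at 38.3, 561 and 588 CPM (log2 3.90 ± 0.08). CC chemokine genes rose in 9 of 12 cases and 1 fell. Of the NF-kB genes 14 of 20 rose, including Nfkbia at 96.5, 913 and 955 CPM (log2 3.27 ± 0.07) and Tnfaip3, which edits ubiquitin chains to shut the pathway down, at 36.7, 321 and 325 CPM (log2 3.13 ± 0.08). Socs3 was at 9.95, 212 and 228 CPM (log2 4.46 ± 0.11).

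Interferon-stimulated genes rose in alveolar macrophages in 28 of 34 cases, with a median of 3.25. Isg15 was at 7.43, 146 and 125 CPM (log2 4.20 ± 0.12) and Ifit1 at 2.33, 69.4 and 71.7 CPM (log2 4.91 ± 0.20). These levels were low beside those of other cells. Only 3 of 34 interferon-stimulated genes had more UMIs per Xist-marked alveolar macrophage than per T cell and per B cell in both LPS libraries. For NF-kB genes it was 16 of 20, and for neutrophil-attracting chemokines all 4. Depth favours the macrophages here, with medians of 15100.5 UMIs per Xist-marked macrophage and 4643 per T cell in LPS replicate 1. With cells of that library thinned to equal depth, Nfkbiz was seen in 26.3% of these macrophages and 26.5% of T cells. Nfkbia was seen in 83.2% and 67.8%, and Cxcl3 in 41.7% and 0.948%. The rest of the NF-kB list was not thinned, so the part of depth in its count was not tested. In LPS replicate 1 Isg15 stood at 2.17 UMIs per Xist-marked macrophage, 7.49 per T cell and 3.24 per B cell, while Tnf stood at 6.21, 0.0437 and 0.0287. T and B cells raise interferon-stimulated genes themselves, so they do not measure free RNA for this list, and the part of free RNA in the macrophage values was not tested. In the alveolar macrophage identity list 2 of 16 genes rose and 1 fell, beside 5.36% and 3.47% of all genes tested. Cells entered the class by identity markers such as Ear2 and Marco, so these counts cannot show that identity was kept. Thinned alike, Ear2 was seen in 86.1%, 70.5% and 68.9% of Xist-marked macrophages and Marco in 37.9%, 37.5% and 38.8%. The fatty acid binding protein Fabp4 was at 221, 697 and 733 CPM (log2 1.69 ± 0.07). The strongest falls were those of the tubulin-binding gene Tppp3, at 179.7, 47.9 and 48.8 CPM (log2 -1.90 ± 0.07), the keratin Krt19, at 506, 168 and 169.8 CPM (log2 -1.58 ± 0.07), and the G protein regulator Rgs2, at 205, 73.4 and 64.0 CPM (log2 -1.57 ± 0.07). Nos2 was near 0, at 0, 1.59 and 1.30 CPM.

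Interstitial macrophages, gated on complement C1q genes, rested on 56, 59 and 51 cells. In interstitial macrophages 844 of 6496 genes (13%) rose and 521 (8.02%) fell, or 675 and 735 with plain library sizes. All 33 interferon-stimulated genes tested rose, with a median of 4.76. Rsad2 was at 0, 1279 and 1841 CPM, at least 238-fold higher. Cxcl10, a chemokine that draws CXCR3-positive lymphocytes, was at 26.2, 7277 and 7790 CPM (log2 8.15 ± 0.27), and Cxcl9, which uses the same receptor, at 0, 249 and 124 CPM, at least 28.4-fold higher. The monocyte chemokine Ccl7 was at 54.7, 1492 and 1059 CPM (log2 4.54 ± 0.28). Il1b and Tnf, at 203, 883 and 891 CPM and 37.2, 112 and 166 CPM, rose by 2.12 ± 0.22 and 1.87 ± 0.40. Of the falls, the histone gene Hist1h2ae had no UMI in either LPS library, at 80.9, 0 and 0 CPM, at least 28.6-fold lower. Retnla, a marker of alternatively activated macrophages, was at 80.9, 1.53 and 0 CPM (37, 1 and 0 UMIs, log2 -6.10 ± 1.50), and its change turned to 0.14 in clusters and 2.04 with a looser gate.

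Nonclassical monocytes and dendritic cells were the other myeloid classes. In nonclassical monocytes 825 of 7353 genes (11.2%) rose and 924 (12.6%) fell, or 655 and 1230 with plain library sizes. Socs3 was at 144, 1708 and 1729 CPM (log2 3.58 ± 0.18) and Il1b at 519, 3823 and 4519 CPM. Cx3cr1, a defining receptor of these cells, was at 543, 24.6 and 59.7 CPM (log2 -3.84 ± 0.27), and 8 of 9 MHC class II genes fell. Camp fell in this class, at 532, 4.61 and 10.9 CPM (log2 -6.24 ± 0.56; -5.45 without LPS replicate 1), against its rise in neutrophils, and its change turned to 6.59 when clusters replaced the gate. In dendritic cells 1139 of 8934 genes (12.7%) rose and 683 (7.64%) fell, or 684 and 1621 with plain library sizes. Il27, a cytokine of activated dendritic cells, was at 0, 178 and 179 CPM, at least 99.3-fold higher. The costimulatory receptor Cd40 was at 25.8, 592 and 695 CPM (log2 4.63 ± 0.26), and the chemokine Ccl22 at 526, 6435 and 7485 CPM (log2 3.73 ± 0.18). Ccl22 is one of the markers that gate dendritic cells, so its own level helped decide which cells were counted in the class. Vehicle dendritic cells lay 65.8% in cluster 39 and 23.1% in cluster 31, whereas LPS ones lay 17.5% and 16.7% in cluster 39 and 72.5% and 78.8% in cluster 31, so the makeup of the class shifted too. In the cell cycle list 14 of 17 genes fell. Top2a, a DNA topoisomerase of dividing cells, was at 153, 65.5 and 3.88 CPM (log2 -1.80 ± 0.25), and the LPS libraries differed widely from each other.

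B cells raised interferon-stimulated and cell cycle genes. In B cells 1581 of 11154 genes (14.2%) rose and 1414 (12.7%) fell, or 1325 and 1690 with plain library sizes, which turns the majority. All 34 interferon-stimulated genes rose, with a median of 3.63, among them Isg15 at 17.5, 881 and 649 CPM (log2 5.45 ± 0.17). Socs1 was at 10.9, 356 and 388 CPM (log2 5.09 ± 0.19). Rag1, which cuts antigen receptor genes in precursor cells, was at 1.00, 62.4 and 60.4 CPM (log2 5.90 ± 0.49), and Hmgn3, a nucleosome binding protein, at 8.89, 305 and 265 CPM (log2 5.00 ± 0.20). Of the cell cycle genes 14 of 17 rose, with Top2a at 10.0, 161 and 293 CPM (log2 4.48 ± 0.20). Cr2 and Fcer2a, the receptors CD21 and CD23 of mature B cells, were at 99.6, 10.6 and 8.29 CPM (log2 -3.36 ± 0.21) and 286, 36.2 and 32.8 CPM (log2 -3.04 ± 0.16). S1pr1, the receptor for leaving lymphoid tissue, was at 263, 87.8 and 72.2 CPM (log2 -1.70 ± 0.14).

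T cells raised interferon-stimulated genes, and the cytokine genes Il22 and Il17f with them. In T cells 745 of 9690 genes (7.69%) rose and 550 (5.68%) fell, or 582 and 991 with plain library sizes. Il22, which acts on epithelium, was at 0.768, 183 and 107 CPM (log2 7.55 ± 0.57), and Il17f at 1.15, 91.3 and 57.4 CPM. The LPS libraries stood apart here, the first being the higher. Both were far above the vehicle library, which picking genes by size or smallest p favours. All 34 interferon-stimulated genes rose, with a median of 3.95, among them the guanylate-binding genes Gbp2 at 38.8, 1448 and 1392 CPM (log2 5.19 ± 0.15) and Gbp5 at 8.96, 454 and 503 CPM (log2 5.73 ± 0.20). Gzmb, a cytotoxic granule protease, was at 27.8, 525 and 587 CPM (log2 4.32 ± 0.15), and the activation marker Cd69 at 299.5, 911 and 1015 CPM (log2 1.68 ± 0.13). The largest falls in T cells were of B cell genes, Cd79a at 50.8, 3.79 and 4.49 CPM (log2 -3.65 ± 0.40) and the MHC class II gene H2-Aa at 169, 30.3 and 8.97 CPM (log2 -2.91 ± 0.20; -4.16 without LPS replicate 1). Vehicle T cells carried 0.248 Cd79a UMIs per cell against 13.9 in B cells, and B cells made up a larger share of that library. The part of free RNA in those falls was not tested.

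In NK cells 7 of 15 lymphocyte activation and effector genes rose and 1 fell, and 2 of 5 CC chemokine genes rose and none fell. In NK cells 642 of 7959 genes (8.07%) rose and 479 (6.02%) fell, or 572 and 1227 with plain library sizes. Gzmb was at 731, 19180 and 22020 CPM (log2 4.82 ± 0.14; edgeR's quasi-likelihood test, Benjamini-Hochberg adjusted p = 0.00107). Ifng, the macrophage-activating interferon, was at 152, 1808 and 1452 CPM (log2 3.43 ± 0.19), and Xcl1, which draws cross-presenting dendritic cells, at 279, 3173 and 3455 CPM (log2 3.57 ± 0.13). Ccl4 was at 959.5, 11140 and 12180 CPM (log2 3.60 ± 0.12). Of 31 interferon-stimulated genes 29 rose. The falls included Mxd4, a MYC antagonist, at 168, 10.1 and 13.1 CPM (log2 -3.89 ± 0.32), and Fam189b, at 59.2, 3.37 and 3.73 CPM (log2 -4.03 ± 0.53).

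Endothelial and stromal cells, which remained in the libraries after CD45 enrichment, had the highest medians for NF-kB genes. In endothelial cells 1767 of 10833 genes (16.3%) rose and 1529 (14.1%) fell, or 1090 and 3375 with plain library sizes. Of the NF-kB genes 19 of 20 rose (median 3.13) in endothelial cells and 15 of 16 (median 3.24) in stromal cells. Icam1, the ligand by which leukocytes adhere, was at 56.1, 2288 and 2231 CPM (log2 5.33 ± 0.11) in endothelial cells, and P-selectin (Selp), which starts leukocyte rolling, was at 2.49, 352 and 446 CPM. Thrombomodulin (Thbd), an anticoagulant receptor, fell, at 778, 128 and 137 CPM (log2 -2.56 ± 0.10). Cxcl10 was at 0, 12990 and 12830 CPM, at least 10360-fold higher, and the growth factor Csf2 at 0, 229 and 191 CPM, at least 168-fold higher. All 17 MHC class I and peptide loading genes rose in each of these classes. The checkpoint ligand Cd274 (PD-L1) was at 14.1, 1022 and 902 CPM (log2 6.09 ± 0.21) in endothelial cells. Nos2 was at 4.57, 33.6 and 26.2 CPM (log2 2.73 ± 0.43). Cyp26b1, which breaks down retinoic acid, fell, at 191, 6.50 and 9.38 CPM (log2 -4.65 ± 0.23).

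In stromal cells 736 of 6421 genes (11.5%) rose and 326 (5.08%) fell, or 458 and 596 with plain library sizes, from 88, 134 and 63 cells. Saa3 was at 20.4, 17420 and 19940 CPM (log2 9.82 ± 0.46). Csf3, which mobilises neutrophils, was at 0, 334 and 201 CPM, at least 39.2-fold higher, Cxcl1 at 0, 645 and 647 CPM, at least 94.9-fold higher, and Il6 at 0, 83.4 and 86.0 CPM, at least 12.4-fold higher.

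**Figure D2:**
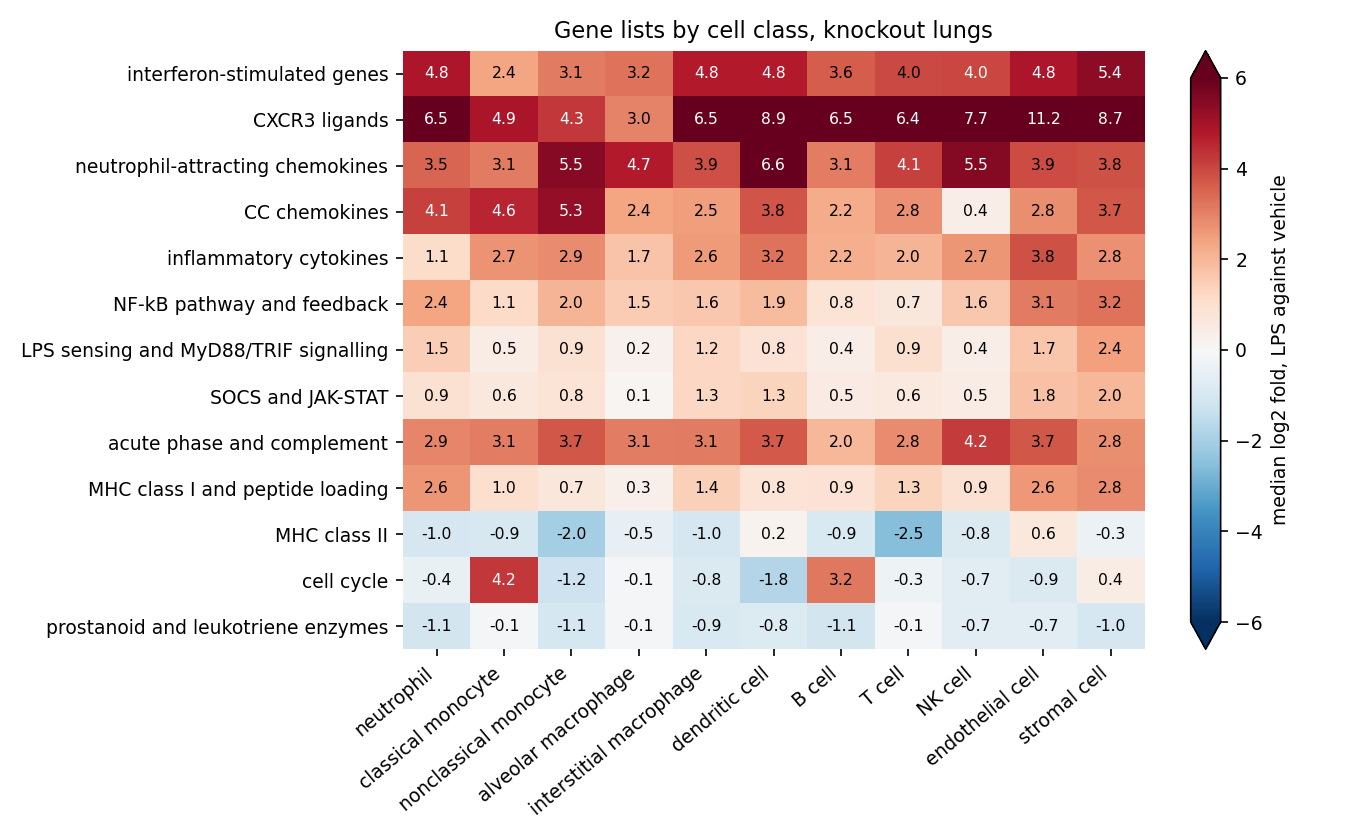
Median log2 change of LPS against vehicle for gene lists (rows) in the 11 tested classes (columns), with genes at 0 UMIs in a group held at their bound. The interferon-stimulated list has a median between 2.37 in classical monocytes and 5.38 in stromal cells.

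The interferon-stimulated list rose in every class tested. Its median ran from 2.37 in classical monocytes to 4.85 in endothelial cells and 5.38 in stromal cells, 28 or more of its tested members rose in every class, and none fell in any. The median over all genes tested was between -0.04 and 0.14. MHC class II genes fell in part in most classes, by 8 of 9 in nonclassical monocytes (median -2.02), 6 of 10 in neutrophils, 5 of 10 in classical monocytes, 4 of 10 in B cells and 1 of 10 in alveolar macrophages. Of all genes tested, 12.6%, 11.4%, 13.1%, 12.7% and 3.47% fell in these classes, in the same order. In T cells 7 of 10 fell (median -2.54), but the B cell gene Cd79a fell there too, and the part of free RNA was not tested. The lists and their members were chosen with results of these data known, so the counts describe them and test nothing.

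Genes of nitric oxide and arginine metabolism were followed because the mice lack a nitric oxide synthase. Of the list's tested members, 7 of 13 rose in neutrophils, 8 of 13 rose and 1 fell in classical monocytes, 7 of 15 rose and 2 fell in endothelial cells, and 5 of 14 rose in alveolar macrophages. Of all genes tested, 16.6%, 15.8%, 16.3% and 5.36% rose in these classes, in the same order. In classical monocytes 13.1% of all genes fell, and in endothelial cells 14.1%. The counts were not tested against these shares. Nos2 was found in neutrophils, classical monocytes and endothelial cells, as given above, and was at 0 in vehicle neutrophils and monocytes. Gch1, which makes the tetrahydrobiopterin cofactor of all nitric oxide synthases, rose with it, at 9.54, 114 and 117 CPM (log2 3.60 ± 0.28) in neutrophils, 48.3, 206 and 202 CPM (log2 2.08 ± 0.14) in classical monocytes and 15.8, 169 and 179.7 CPM (log2 3.46 ± 0.23) in endothelial cells. Ass1, which recycles citrulline to arginine, was at 15.5, 231 and 229 CPM (log2 3.89 ± 0.22) in classical monocytes. The arginine transporter Slc7a2 was at 2.81, 66.9 and 47.2 CPM (log2 4.36 ± 0.49) in the same cells and was already high in vehicle alveolar macrophages, at 402, 833 and 901 CPM (log2 1.11 ± 0.06). Odc1, which turns ornithine into putrescine, was at 20.4, 263 and 296 CPM (log2 3.75 ± 0.46) in stromal cells.

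Receptors and adaptors of LPS sensing rose in part in every class. Of the tested members 12 of 19 rose in neutrophils, 11 of 17 in endothelial cells, 9 of 15 in interstitial macrophages, 5 of 20 in classical monocytes and 5 of 18 in alveolar macrophages. Over all genes tested, 16.6%, 16.3%, 13%, 15.8% and 5.36% rose in these classes, in the same order. The counts cover rises only and were not tested against these shares. Cd14 was at 238, 3325 and 3176 CPM (log2 3.77 ± 0.07) in neutrophils, 126, 280.2 and 263 CPM (log2 1.10 ± 0.07) in alveolar macrophages and 5.40, 111 and 95.3 CPM (log2 4.26 ± 0.37) in endothelial cells. Tlr2, the receptor for bacterial lipopeptides, was at 4.57, 182 and 212 CPM (log2 5.40 ± 0.39) in endothelial cells. Irak3, a brake on MyD88 signalling, was at 35.4, 671 and 669.8 CPM (log2 4.24 ± 0.15) in neutrophils and 46.9, 193 and 187 CPM (log2 2.02 ± 0.14) in classical monocytes. The kinase gene Map3k8 rose in all 11 classes, with the largest fitted change in T cells, at 6.53, 143 and 137 CPM (log2 4.42 ± 0.23).

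Receptors that guide leukocytes moved in both directions. The formyl peptide receptor Fpr2, which senses bacterial and damage peptides, rose in neutrophils, at 96.0, 876 and 882 CPM (log2 3.19 ± 0.10), in classical monocytes, at 23.9, 393 and 436 CPM (log2 4.11 ± 0.18), and in nonclassical monocytes, at 53.9, 747 and 792 CPM (log2 3.83 ± 0.23). Ccr2 fell in classical monocytes, at 1083, 506 and 460.0 CPM (log2 -1.16 ± 0.09), while the inflammatory chemokine receptor Ccr1 rose, at 34.2, 337 and 342 CPM (log2 3.31 ± 0.16). Ccr2 is one of the markers that gate classical monocytes, so its own level helped decide which cells were counted there. In interstitial macrophages Ccr2 and Cx3cr1 were at 349.9, 43.0 and 29.2 CPM (log2 -3.22 ± 0.31) and 833, 96.7 and 58.4 CPM (log2 -3.37 ± 0.24). The integrin subunit Itga4 fell in neutrophils, at 297, 45.7 and 56.5 CPM (log2 -2.55 ± 0.12), and Cxcr4 fell in nonclassical monocytes, at 213, 12.3 and 16.3 CPM (log2 -3.94 ± 0.41). S1pr1 fell in B cells but rose in endothelial cells, at 425, 2293 and 2165 CPM (log2 2.39 ± 0.08). In NK cells 8 of 17 genes of this list fell and 2 rose, with the integrin Itgam at 238, 79.6 and 76.5 CPM (log2 -1.60 ± 0.16). Of all genes tested in NK cells 6.02% fell and 8.07% rose.

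Targets of the glucocorticoid receptor, which is activated by stress hormones in endotoxaemia, rose in 10 of 14 cases in each of endothelial and stromal cells. Of all genes tested, 16.3% rose in endothelial and 11.5% in stromal cells. Fkbp5, a co-chaperone of that receptor, was at 56.0, 415 and 412 CPM (log2 2.88 ± 0.07) in alveolar macrophages, 14.1, 147 and 154 CPM (log2 3.41 ± 0.23) in classical monocytes and 4.57, 162 and 144 CPM (log2 5.06 ± 0.39) in endothelial cells. The metallothionein Mt1, which binds zinc, was at 9.97, 8117 and 7697 CPM (log2 9.62 ± 0.19) in endothelial cells and 322, 36680 and 27710 CPM (log2 6.64 ± 0.22) in stromal cells. In glycolysis, Pfkfb3, which makes an activator of phosphofructokinase, was at 22.5, 326 and 308 CPM (log2 3.82 ± 0.19) in neutrophils and 26.2, 1055 and 1016 CPM (log2 5.30 ± 0.16) in endothelial cells, and Hif1a was at 58.5, 1029 and 971 CPM (log2 4.09 ± 0.12) in the latter.

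Among enzymes of lipid mediators, Ptges, which makes prostaglandin E2, was at 4.80, 15.6 and 21.6 CPM (log2 1.91 ± 0.18) in alveolar macrophages. The 5-lipoxygenase activating protein Alox5ap fell, at 1380, 394 and 387 CPM (log2 -1.82 ± 0.09) in classical monocytes and 694, 117 and 146 CPM (log2 -2.43 ± 0.19) in nonclassical monocytes. The cyclooxygenase gene Ptgs2 fell in neutrophils, at 601, 259.5 and 245 CPM (log2 -1.25 ± 0.07). Immediate-early genes can also be induced by tissue digestion. Of them 9 of 20 fell in classical monocytes and 6 of 17 in interstitial macrophages, while 7 of 20 rose in alveolar macrophages. Of all genes tested, 13.1% fell in classical monocytes, 8.02% fell in interstitial macrophages and 5.36% rose in alveolar macrophages. The counts cover 1 direction per class and were not tested against these shares. Egr1 was at 453, 100.1 and 88.4 CPM (log2 -2.26 ± 0.09) in classical monocytes and 37.1, 506 and 525 CPM (log2 3.80 ± 0.08) in alveolar macrophages. Atf3 was at 964, 118 and 110.1 CPM (log2 -3.08 ± 0.09) and 244, 54.1 and 49.0 CPM (log2 -2.23 ± 0.09) in classical monocytes and neutrophils. The part of digestion in these values was not tested.

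With only Xist-marked cells kept in every library, which also leaves out cells with no mark or with both (368 of 431 vehicle neutrophils had none), the number of genes called was 0.709 to 1.22 times the full count in 9 classes, from 1749 to 1240 in nonclassical monocytes and from 3296 to 4004 in endothelial cells. It went from 1139 to 1890 (882 up, 1008 down) in alveolar macrophages and from 3200 to 1683 in neutrophils, where 63 vehicle cells carried Xist UMIs. All 115 named gene results that could be refitted were the same, judged by direction and adjusted p under 0.05 without the 2-fold limit. A change of direction with neither fit passing also counted as the same. In alveolar macrophages Cxcl3 went from a change of 7.76 to 8.89 and Tnf from 4.38 to 5.30, so the Xist-marked cells alone gave larger changes.

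Y-marked and Xist-marked cells of the same LPS library were therefore compared directly, with the library as a block. Among the 11 tested classes, the share of Y-marked among single-marked cells ran from 8.92% and 9.43% of B cells to 58.7% and 59.9% of neutrophils, with 50.2% and 39.9% of alveolar macrophages. The share depends on how often Xist is detected. In the vehicle library, with cells of 1 sex, Xist was seen in 14.6% of neutrophils, 81.1% of B cells and 97.4% of alveolar macrophages, so the order of classes is not an order of male cells.

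**Figure D3:**
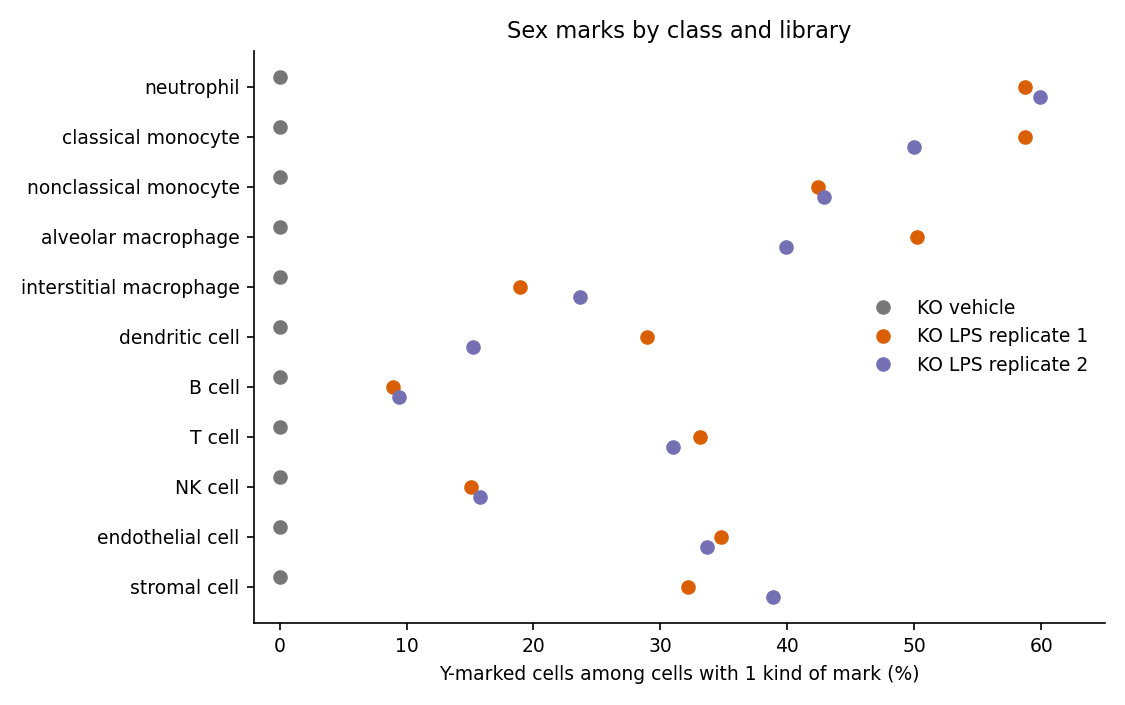
Share of Y-marked cells among cells with only Xist or only Y-linked UMIs (percent) in each class of the vehicle library and of each LPS library. Points are libraries, and no intervals are drawn. In the LPS libraries B cells stand at 8.92% and 9.43% and neutrophils at 58.7% and 59.9%.

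The 4 Y-linked marks are among the genes higher in Y-marked cells in each of the 6 classes compared, and Xist among those lower, as the marks themselves set, and the counts below include them. Tsix, the antisense partner of Xist, was lower in 5 of the classes.

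Y-marked alveolar macrophages had far lower chemokine and cytokine transcripts than Xist-marked ones of the same library. Of 10986 genes tested in them, 691 (6.29%) were higher and 600 (5.46%) lower in Y-marked cells. Cxcl3 was at 1023 and 821 CPM in Xist-marked cells of LPS replicates 1 and 2 and at 17.6 and 16.0 CPM in Y-marked ones, against 2.11 CPM in Xist-marked vehicle cells (log2 Y minus Xist -5.81 ± 0.09). Tnf was at 418 and 369 CPM against 45.9 and 35.7 CPM, with 10.9 CPM in vehicle cells (log2 -3.24 ± 0.07). Il1a was at 638 and 534 CPM against 20.8 and 23.7 CPM (log2 -4.79 ± 0.10), and its vehicle level was 20.8 CPM. Y-marked cells thus stood near the vehicle level for Il1a, as far as the different scaling allows. Ch25h, which makes 25-hydroxycholesterol, was at 877 and 823 CPM against 40.9 and 26.8 CPM (log2 -4.57 ± 0.08), and the chemokine Ccl9 at 1408 and 1388 CPM against 136 and 134 CPM (log2 -3.37 ± 0.04). Both LPS libraries gave the same order for each of these genes, without overlap, which picking genes by smallest p favours.

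By list, 15 of 20 NF-kB genes were lower in Y-marked alveolar macrophages and none higher (median -1.69), as were 8 of 14 inflammatory cytokine genes (median -1.12), 3 of 4 neutrophil-attracting chemokines (median -2.74) and 6 of 10 MHC class II genes (median -1.41). Nfkbia was at 1395 and 1331 CPM against 430.2 and 428 CPM, with 102 CPM in vehicle cells (log2 -1.67 ± 0.03). Of the interferon-stimulated genes only 4 of 34 were lower and none higher (median -0.69). Isg15 was at 146 and 139 CPM against 87.5 and 81.2 CPM, with 7.72 CPM in vehicle cells, a difference under 2-fold. Genes higher in Y-marked cells included Dhrs3, a retinal reductase, at 42.5 and 42.6 CPM in Xist-marked and 222 and 216 CPM in Y-marked cells beside 287 CPM in vehicle cells (log2 2.37 ± 0.07), and Lpin1, a phosphatidate phosphatase, at 82.0 and 87.6 CPM and 271 and 270.0 CPM beside 204 CPM (log2 1.68 ± 0.06). For Dhrs3 the Y-marked cells lay nearer the vehicle level.

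At equal depth the order held for Tnf. With every cell thinned to 2000 UMIs, 42.1% of Xist-marked and 8.92% of Y-marked alveolar macrophages of LPS replicate 1 had a Tnf UMI, and 36.9% and 6.75% of replicate 2, against 2.10% in the vehicle library. T cells of the LPS libraries, thinned alike, had 1.66% and 1.23%. Without thinning the macrophage shares were 81.8% and 30.8%, 71.9% and 23.2%, and 9.57%. For Ifit1 the thinned shares of LPS replicate 1 were 7.43% of Xist-marked and 7.78% of Y-marked cells, with overlapping exact 95% binomial intervals. Isg15 stood at 14.1% and 10.1%, also with overlap. Cxcl10 stood at 17.9% (14.7% to 21.5%) and 11.6% (8.97% to 14.6%), without overlap. In LPS replicate 2 the intervals of the marks overlapped for each of these genes. T cells of LPS replicate 1, thinned alike, had 71.8% for Ifit1, 82.7% for Isg15 and 55.7% for Cxcl10. The part of free RNA in these macrophage shares was not tested.

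**Figure D4:**
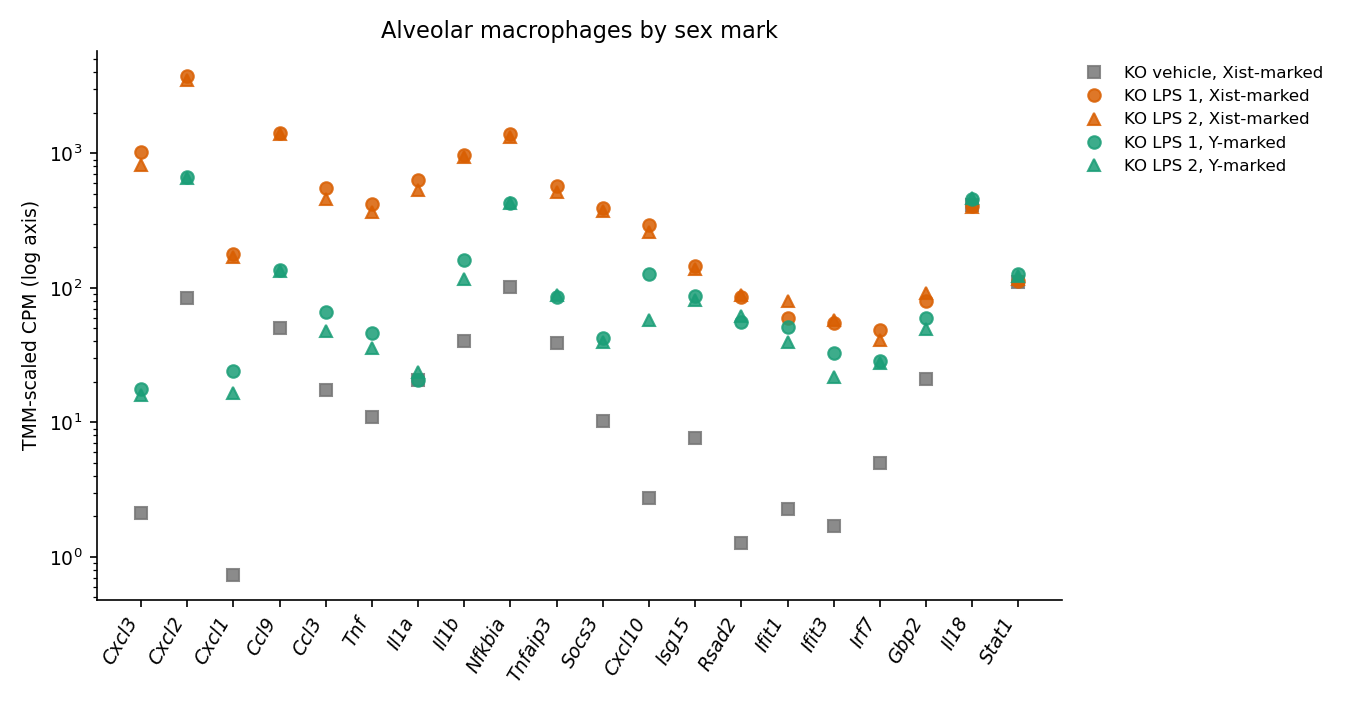
CPM (log axis) of selected genes in alveolar macrophages of the knockout by library and sex mark, with the vehicle library's Xist-marked cells beside them; points are sums over cells of 1 library and mark. Tnf, Il1a and Cxcl3 are far lower in Y-marked than in Xist-marked cells of both LPS libraries, and Isg15 differs by less than 2-fold. Some of the genes shown were chosen after their values were seen.

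Other classes gave other patterns. In classical monocytes 506 of 9475 genes (5.34%) were higher and 660 (6.97%) lower in Y-marked cells, and 21 of 34 interferon-stimulated genes were lower (median -1.10). Edn1 was at 424 and 503 CPM against 20.3 and 17.9 CPM (log2 -4.54 ± 0.12), and Ccr2, the receptor that brings monocytes into tissue, was higher, at 246 and 239.5 CPM against 614 and 580.1 CPM beside 1164 CPM in vehicle cells (log2 1.30 ± 0.07). Ccr2 is also a gate marker of this class. In endothelial cells 866 of 8129 genes (10.7%) were higher and 593 (7.29%) lower, and 12 of 18 NF-kB genes were lower (median -1.18). Cxcl10 was at 19440 and 18490 CPM against 3215 and 2817 CPM (log2 -2.65 ± 0.04), and Hpgd, which degrades prostaglandins, at 115 and 113 CPM against 1518 and 1454 CPM beside 4382 CPM in vehicle cells (log2 3.71 ± 0.09).

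In neutrophils 329 of 8026 genes (4.1%) were higher and 867 (10.8%) lower, but 1 of 20 NF-kB genes and 3 of 34 interferon-stimulated genes were lower and none higher. Camp was at 5546 and 4222 CPM against 1357 and 1455 CPM (log2 -1.79 ± 0.05). In B cells 103 of 7524 genes (1.37%) were higher and 139 (1.85%) lower. Add3, a membrane skeleton protein, was at 25.5 and 34.5 CPM against 200.2 and 259.6 CPM beside 387 CPM in vehicle cells (log2 2.94 ± 0.19). In T cells 21 of 5215 genes (0.403%) were higher and 90 (1.73%) lower, and Il17a, the namesake cytokine of type 17 cells, was at 398 and 109.6 CPM against 27.1 and 12.6 CPM (log2 -3.70 ± 0.36). Il22 had 396 and 62.0 CPM against 2.09 and 0 CPM. Of the interferon-stimulated genes 15 of 31 were lower in Y-marked T cells (median -1.25), 9 of 34 in endothelial cells (median -0.63) and 3 of 33 in B cells (median -0.57), and none was higher. The difference of these contrasts between classes was not tested.

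**Figure D5:**
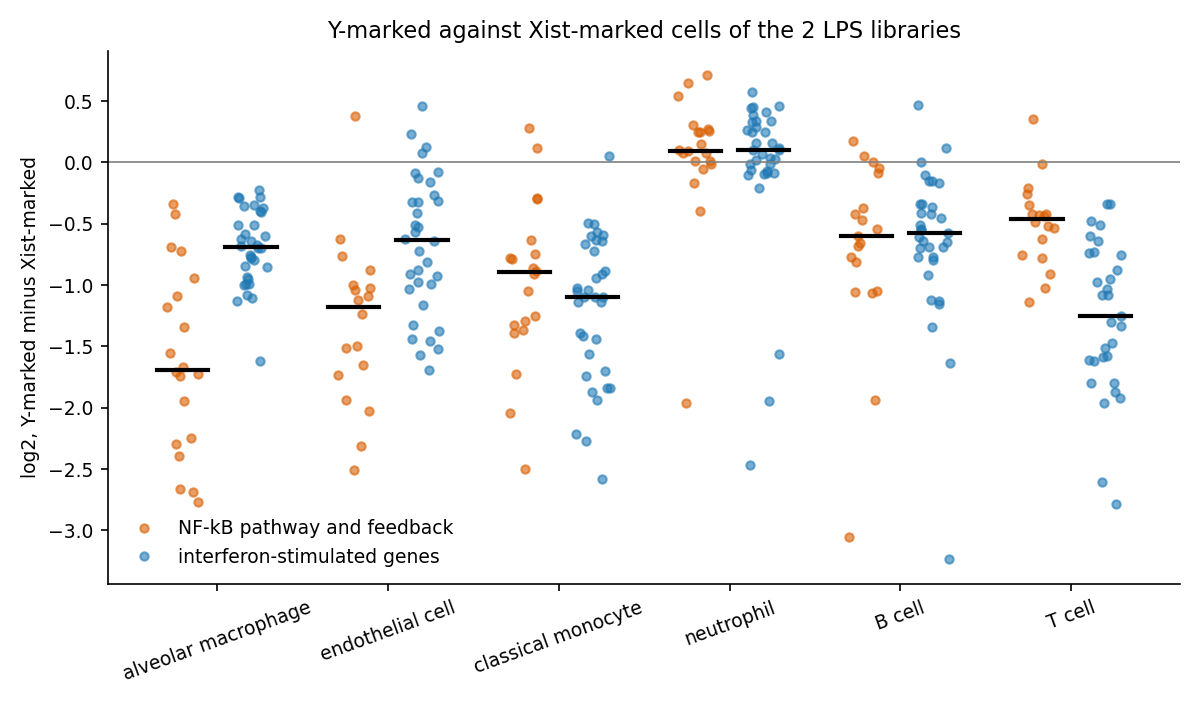
Log2 difference of Y-marked from Xist-marked cells (vertical axis) for the genes of the NF-kB and interferon-stimulated lists, in the 6 classes with enough marked cells (horizontal axis). Points are genes and black bars are the medians of a list in a class. The NF-kB list has a median of -1.69 in alveolar macrophages and 0.10 in neutrophils.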

How the data were processed

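Single-cell UMI counts of 32285 genes were analysed from the 3 Nos1 knockout libraries. The deposited counts are raw whole numbers per gene and barcode, with at least 500 UMIs per barcode. Cell Ranger 6.1.0 with mm10, Seurat 4.1.0 and R 4.1.3 are named per the submitters' processing notes, with no record of earlier filters. Doublets were not removed in the main analysis beyond cells with markers of 2 classes, and Scrublet was an alternative. Each kept cell was scored on 17 marker sets (score of at least 0.25, the second class at most 0.6 of the first). This gate was set with the values in view and placed 85.6% to 98.7% of a class in Leiden clusters of the same name, while 2147 cells (7.52%) lay near its threshold. UMIs were summed per library and class, for classes with at least 30 cells in each library, and tested with edgeR 4.0.16 (glmQLFit, TMM, filterByExpr, 1 residual degree of freedom) in R 4.3.3, with scanpy 1.11.5, leidenalg 0.10.2 and scipy 1.17.1 in Python. The code was tested on simulated data. Y-marked cells carry UMIs of 1 or more of 4 Y-linked genes and none of Xist.

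Members, markers and the 24 gene lists were chosen with earlier results of these data known. The text names genes by a rule: 6 rises and 6 falls of greatest size in neutrophils, classical monocytes, alveolar and interstitial macrophages, and 3 of each in other classes, from called genes at 50 CPM or more with both LPS libraries on the same side of the vehicle library and, for rises, 5 times the UMIs per cell of T cells (B cells for T and NK cells). Predicted, ribosomal, mitochondrial, haemoglobin and antigen receptor genes and the class's own markers were left out. To these were added up to 4 genes per list and class by smallest p, 10 fixed genes, and the 4 smallest p in each direction between sex marks. The added genes can be markers of the class. Only part of the genes so taken is printed, and some are not reported here. Alternatives were DESeq2 1.42.0, plain library sizes, no filter on low counts, clusters, Scrublet, other cell filters, only Xist-marked cells, other denominators and leaving out each LPS library. A gate ratio of 0.7 and a fit without the library block were added after seeing the data.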

Additional observations from a re-analysis of the deposited data

Results flagged for a closer look

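Of the genes named here for their size, from the fixed list or in the text, 24 rose in at least 1 class and fell in another. The values below are log2 changes of LPS against vehicle, the steepest fall first and then the largest rise, and the difference between the classes was not tested. In nonclassical monocytes Camp fell to -6.24 (rise of 9.72 in neutrophils), Ngp to -5.76 (8.56 in alveolar macrophages), Slc46a3 to -5.87 (2.02 in endothelial cells) and Cd79a to -3.67 (1.11 in neutrophils). Over all libraries Ngp averaged 27.9 per 10000 UMIs in neutrophils and at most 0.817 in another tested class, and it rose in 8 classes. Cd79a averaged 31.9 in B cells and at most 0.419 elsewhere. The part of free RNA in these rises of Ngp and Cd79a was not tested. In interstitial macrophages Retnla fell to -6.10 (5.14 in dendritic cells), Hist1h1b to -5.49 (4.54 in B cells), Mcm7 to -4.93 (1.43 in classical monocytes), Hist1h2ae to -4.84 at its bound (3.68 in stromal cells) and Tppp3 to -2.82 (0.87 at its bound in neutrophils). In neutrophils Prkar2b fell to -3.72 (1.31 in endothelial cells). In classical monocytes Ldlrad3 fell to -4.26 (1.93 in endothelial cells) and Pdlim1 to -2.50 (2.72 in endothelial cells). Cyp26b1 fell to -4.65 in endothelial cells (1.67 in alveolar macrophages), Dut to -3.13 in dendritic cells (1.97 in classical monocytes) and Scd2 to -4.23 in stromal cells (1.21 in neutrophils). Further genes were Top2a (-3.18 in nonclassical monocytes, 6.16 in classical monocytes), Mki67 (-3.39 and 5.55 in the same classes), Atf3 (-3.08 in classical monocytes, 3.04 in endothelial cells), Egr1 (-2.26 in classical monocytes, 3.80 in alveolar macrophages), Itga4 (-2.55 in neutrophils, 1.26 in dendritic cells), S1pr1 (-1.72 in NK cells, 3.05 in stromal cells), Itgam (-1.60 in NK cells, 2.45 in endothelial cells), Ptgs2 (-1.72 in B cells, 3.73 in dendritic cells) and Slc7a2 (-1.45 in B cells, 4.36 in classical monocytes). Some of these falls rest on few UMIs. Vehicle, LPS replicate 1 and LPS replicate 2 had 37, 1 and 0 UMIs of Retnla, 139, 7 and 0 of Hist1h1b and 30, 0 and 2 of Mcm7 in interstitial macrophages, and 38, 1 and 2 of Mki67 and 43, 3 and 1 of Top2a in nonclassical monocytes. Without LPS replicate 1 the nonclassical monocyte values were -5.45 for Camp and -4.79 for Ngp, and without LPS replicate 2 -6.63 and -6.51.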

How the results depend on the processing

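No paired analysis was possible because the vehicle group has 1 library. One vehicle library, classes of 51 to 88 cells in the smallest cases and free RNA limit what these data can show. Over 118 gene results, 1014 of 1037 refitted values with a test were the same, 12 lost an adjusted p under 0.05, 5 gained it and 6 turned. The 2-fold limit was not applied here, and a change of direction with neither fit passing counted as the same. Of 236 values without an LPS library, which have no test, 81 moved and none of a called gene turned. The cause of the following changes was not tested. DESeq2 called 1654 genes in B, 515 in NK and 613 in T cells, 601 in alveolar macrophages, 2196 in classical and 602 in nonclassical monocytes, 629 in dendritic, 1737 in endothelial and 342 in stromal cells and 379 in interstitial macrophages. Plain library sizes called 1799 in NK cells. Clusters called 2146 in NK cells, 2459 in interstitial macrophages and 1776 in stromal cells. Xist-marked cells alone gave 1890 in alveolar macrophages and 1683 in neutrophils. Without the library block 212 genes differed between marks in T cells.

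Log2 share changes among gated cells other than neutrophils were -0.040 for alveolar macrophages, -0.28 for B cells, -0.69 for NK cells and -0.48 for nonclassical monocytes. In Xist-marked cells they were -0.14 for B cells, -0.44 for NK cells, 1.09 for endothelial cells and 1.46 for plasmacytoid dendritic cells. Dendritic cells passed with clusters (-0.90), at most 5% mitochondrial UMIs (-0.84), at least 500 genes (-0.60) and CD45-lineage classes (-0.51). Endothelial cells passed with clusters (0.69), Scrublet (0.52) and 500 genes (0.58). Platelets passed with clusters (2.18), Scrublet (2.06), 5% mitochondrial UMIs (1.62), 500 genes (2.55) and a gate ratio of 0.7 (1.88). With clusters interstitial macrophages gave -0.77 and nonclassical monocytes -0.16. Leaving out an LPS library gave 2.82 to 2.82 for neutrophils, 1.51 to 1.59 for classical monocytes, -2.31 to -2.20 for T, -1.07 to -0.96 for B and -1.57 to -1.28 for NK cells, -0.80 to -0.77 for alveolar macrophages and -1.36 to -1.07 for nonclassical monocytes. Directions that turned were Jchain in endothelial cells (0.79, clusters), Retnla in interstitial macrophages (0.14, clusters; 2.04, gate ratio 0.7), Il1b in neutrophils (-0.27, plain library sizes), and Camp (6.59) and Ngp (7.11) in nonclassical monocytes with clusters.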

Other observations

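Cells with transcripts of immature stages were counted in 2 classes, by gene sets chosen after their values were seen and therefore without a test. A cell counted if it had UMIs of at least 2 genes of its set. B cells with precursor genes such as Rag1 and Vpreb1 were 1 of 1850 (0.0541%) in the vehicle library, 31 of 1186 (2.61%) in LPS replicate 1 and 25 of 925 (2.70%) in LPS replicate 2. Neutrophils with secondary granule genes such as Camp, Ngp and Ltf were 0.232% of the vehicle library and 36.5% and 34.1% of the LPS libraries. By mark, they were 54.3% and 56.7% of Xist-marked and 39.7% and 37.8% of Y-marked neutrophils, both above the shares of all neutrophils. Cells were not thinned for these counts, and median UMIs per neutrophil were 2194 in the vehicle library and 5096.5 and 3773 in the LPS libraries. The parts of depth and free RNA were not tested.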
